A study of Rattus norvegicus with 12 samples.

Results

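Piwil1 and Tex19.1 are a pair of germline genes that restrain transposons, and their transcripts were followed in whole testis of control rats and of rats stressed for 3, 14 or 21 days. They are 2 of the 31512 features measured and 2 of the 578 germ cell markers listed in the marker table of the study that was used here. They were chosen by their measured values, because the study listed both under transposition among the markers lower after 14 or 21 days of stress than in controls. Their values in the 14-day and 21-day groups against control are therefore given as a description with no test, and tests are given only for the other 4 comparisons of groups, which share libraries with the comparisons that chose the genes. Piwil1 is the transcript ENSRNOT00000001238.5 of 4005 bases and carries the label of a spermatocyte (SPC) marker. Tex19.1 is the transcript ENSRNOT00000054928.2 of 1724 bases, labelled a spermatogonia (SPG) marker, and was found as the single deposited transcript whose counts matched the study's marker table in all 12 libraries to within 0.6 counts.

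PIWI proteins are germline Argonautes that are guided by small RNAs, the piRNAs, to transcripts of transposons and of other genes. Piwil1, also called MIWI in the mouse, is a PIWI protein of pachytene spermatocytes and round spermatids, where it binds piRNAs made in large amounts during meiotic prophase. Tex19.1 is a mammalian germ cell protein that limits retrotransposons and is needed for chromosome synapsis in mouse spermatocytes. Both are used as markers of germ cells in the testis, where spermatogonia divide, spermatocytes go through meiosis and spermatids mature into sperm.

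All rats were male SD (Sprague Dawley) animals with a labelled age of 8 weeks, and each of the 4 groups had 3 libraries of total RNA from testis depleted of ribosomal RNA. RS+IS rats were restrained each day and then swam in ice water, for 3, 14 or 21 days. The labels give the same age to all groups although the stress differed in length. Age at sampling may therefore differ between groups and cannot be told apart from stress duration. Controls were neither restrained nor swum, though food and water were withheld from them too, and their labels give no time point. Nothing says that libraries with the same number share an animal or a day, and the p-values measure the spread between these libraries. Whole testis holds all stages of germ cells together with somatic cells, so fewer cells of a type and less RNA per cell cannot be told apart.

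The sequences upstream of both genes are shown because MYB family factors, among them the meiotic factor A-MYB encoded by Mybl1, drive many genes of the piRNA pathway. The 250 bases before the RefSeq start of each gene are given 5′ to 3′ on the strand of the gene, in build GRCr8, Piwil1 at chr12:33606584-33606833 on the minus strand and Tex19.1 at chr10:106918309-106918558 on the plus strand. Capitals mark matches, on either strand, to the MYB core AACNG, to CCAAT, to GGGCGG and to TATAAA.
Piwil1: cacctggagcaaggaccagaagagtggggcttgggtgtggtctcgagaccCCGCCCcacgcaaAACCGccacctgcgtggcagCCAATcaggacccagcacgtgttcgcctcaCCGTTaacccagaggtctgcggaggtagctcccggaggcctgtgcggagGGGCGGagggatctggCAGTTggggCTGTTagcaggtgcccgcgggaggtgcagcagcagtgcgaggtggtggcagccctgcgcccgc
Tex19.1: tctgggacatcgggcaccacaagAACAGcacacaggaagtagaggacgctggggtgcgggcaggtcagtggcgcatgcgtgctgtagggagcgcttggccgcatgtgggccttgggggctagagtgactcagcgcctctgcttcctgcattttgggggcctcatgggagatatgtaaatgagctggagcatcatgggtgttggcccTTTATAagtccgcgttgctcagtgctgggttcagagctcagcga

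The Piwil1 window held 4 matches to AACNG, 1 to CCAAT and 2 to GGGCGG, and none to TATAAA. The Tex19.1 window held 1 match to AACNG and 1 to TATAAA, close to the start, and none to CCAAT or GGGCGG. Over all 33469 RefSeq promoters of the same length, 75.2% held AACNG, 34.0% CCAAT, 30.5% GGGCGG and 12.9% TATAAA. These shares count promoters with at least 1 match, so they do not say how common 4 matches to AACNG are. The Piwil1 window also held CACGTG, found in 5.59% of promoters and left in lower case, and neither window held TGACG, found in 18.2%. Piwil1 had 17 CpG dinucleotides at a GC content of 68.0%, and 21.9% of promoters had as many CpG or more. Tex19.1 had 11 CpG at a GC content of 59.2%, and 33.6% of promoters had as many or more, against a median of 5.0 over all promoters. A match describes letters in the window and was not tested as a binding site.

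The libraries held between 23907966 and 29404567 estimated counts, and their TMM factors, which scale libraries for composition, lay between 0.955 and 1.03. Chi-square divided by its degrees of freedom was 9.23 to 33.4 within groups, above the value of pure counting, and each library was counted as a separate sample. All markers of the 3 germ cell stages other than Piwil1 and Tex19.1 were above 0 in every library, including the spermatocyte gene Sycp3 and the spermatogonia gene Stra8. None of 14 listed markers of Sertoli, Leydig, macrophage, peritubular and endothelial cells could be named in the deposited tables, which carry transcript identifiers only.

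Per unit of length, Piwil1 was the more abundant of the pair in every library. Its deposited TPM, a level scaled to transcript length and to the library total, was between 9.11 and 12.3 times that of Tex19.1, and with the Piwil1 TPM that follows from its count, which departs from the deposited value in the 14-day libraries only, the ratio reached 13.5. Between 3.96% and 5.48% of all features had a TPM above that of Piwil1, and between 25.2% and 31.4% had a TPM above that of Tex19.1. Among the 181 SPC markers Piwil1 ranked from 83 to 104 by deposited TPM and from 83 to 107 by the TPM that follows from its count, and among the 12 SPG markers Tex19.1 ranked from 7 to 9. Piwil1 was counted between 8098 and 13062 times per library and Tex19.1 between 294 and 489 times. For Piwil1 the coefficient of variation between libraries of a group was 8.08% to 9.61%, against 0.916% to 1.04% from counting alone. For Tex19.1 it was 4.94% to 8.89% between libraries and 4.59% to 5.48% from counting, so its spread within the control and 3-day groups was about that of counting.

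Piwil1 had the lowest mean level after 21 days of RS+IS. Its CPM, the count scaled to the library size and the TMM factor, was 388, 457 and 428 in the control libraries. In the 3-day group it was 408, 401 and 467 CPM. The 3-day values lay inside or just above the control range. In the 14-day group Piwil1 was 393, 347 and 420 CPM, from counts that are uncertain, as described with its TPM below. In the 21-day group it was 323, 369 and 382 CPM, so that every 21-day library was below every control and every 3-day library, while the 14-day libraries overlapped all other groups. The mean CPM was 424 ± 34.3 (SD, n = 3) in controls, 425 ± 36.4 (SD, n = 3) at 3 days, 387 ± 37.2 (SD, n = 3) at 14 days and 358 ± 30.7 (SD, n = 3) at 21 days. The order of the levels was thus 21-day, 14-day, control and 3-day, and the libraries of neighbours in that order overlapped.

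Tex19.1 was lower in both long stress groups than in control and 3-day libraries, with a gap between them. Its level was 17.6, 16.1 and 17.4 CPM in controls. At 3 days it was 17.9, 16.1 and 16.9 CPM. These 6 libraries covered nearly the same range. At 14 days Tex19.1 was 12.1, 14.5 and 13.6 CPM. At 21 days it was 11.7, 13.1 and 13.9 CPM. All 6 libraries of the long stress groups were below all 6 libraries of the other groups, and the 14-day and 21-day groups overlapped each other. Tex19.1 was chosen for low values in the long stress groups, so this gap describes that choice. The share of all features with such a gap was not computed. The mean CPM was 17.0 ± 0.841 (SD, n = 3) in controls, 17.0 ± 0.869 (SD, n = 3) at 3 days, 13.4 ± 1.19 (SD, n = 3) at 14 days and 12.9 ± 1.09 (SD, n = 3) at 21 days.

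**Figure D1:**
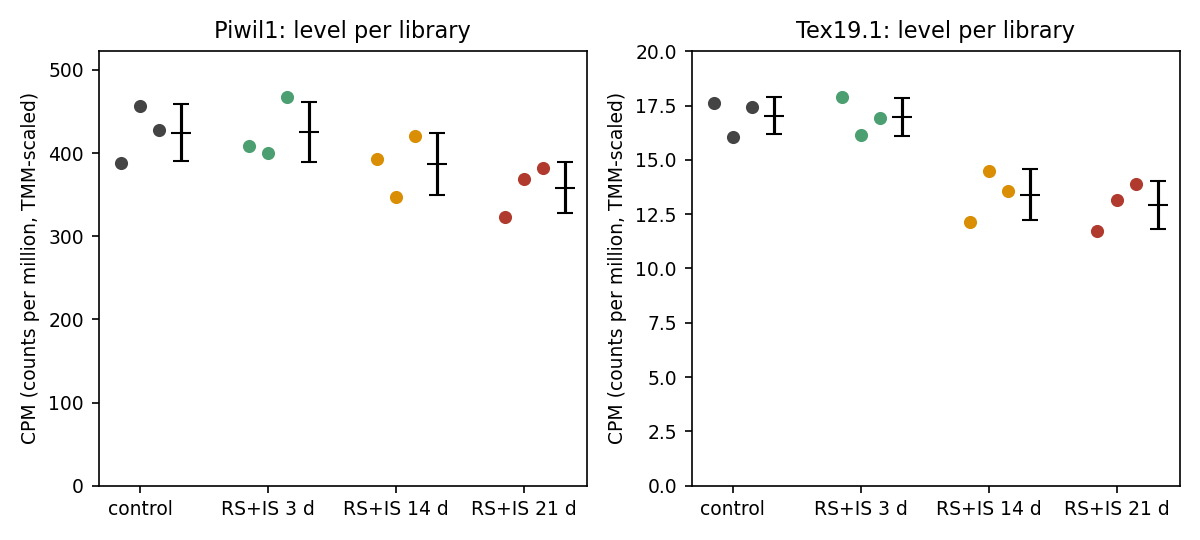
Level of Piwil1 (left) and Tex19.1 (right) in CPM, the count scaled to library size and TMM factor, for the 3 libraries of each group; bars show the mean ± SD and both axes start at 0. Tex19.1 sits between 16.1 and 17.9 in control and 3-day libraries and between 11.7 and 14.5 in 14-day and 21-day libraries, whereas for Piwil1 the 21-day libraries lie below all control and 3-day libraries but overlap the 14-day libraries. Both genes were chosen for low values in the long stress groups, so these gaps describe that choice.

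Against control, the comparisons that chose the genes, mean Piwil1 CPM was 91.1% of control at 14 days and 84.4% at 21 days. The log2 fold change of Piwil1 was -0.13 (SE 0.0926) at 14 days, with overlapping groups, and -0.23 (SE 0.0938) at 21 days, with every 21-day library lower. Mean Tex19.1 CPM was 78.7% of control at 14 days and 75.9% at 21 days. The log2 fold change of Tex19.1 was -0.34 (SE 0.0974) at 14 days and -0.39 (SE 0.105) at 21 days, and all stressed libraries were below all controls at both times. Of all features tested, 9.77% had every 14-day library below every control and 11.2% had every 21-day library below every control. Nothing is read from these shares, because the genes were chosen from these comparisons.

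At 3 days neither gene differed from control beyond the spread, and the log2 fold change was 0.0062 (SE 0.0848, adjusted p = 0.998, edgeR quasi-likelihood test with Benjamini-Hochberg adjustment) for Piwil1 and -0.0021 (SE 0.0897, adjusted p = 0.998, edgeR) for Tex19.1. Groups overlapped for both genes, and an exact permutation test (two-sided) of log2 CPM gave p = 1.0 for each. With 3 libraries against 3 the smallest p of that test is 0.1. The sign of the Tex19.1 difference turned positive, 0.025, when libraries were scaled to the total count alone. Over all features, 4.77% had every 3-day library below every control.

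Between 14 and 3 days of stress, Tex19.1 was lower in every 14-day library and Piwil1 groups overlapped. The log2 fold change of Tex19.1 was -0.34 (SE 0.0937, adjusted p = 0.260, edgeR), with an exact permutation p of 0.1. That of Piwil1 was -0.14 (SE 0.0851, adjusted p = 0.513, edgeR), with an exact permutation p of 0.4. Neither passed the adjusted threshold of 0.05. At an unadjusted p of 0.0074 (edgeR) Tex19.1 was among the 5.65% of all features that were lower at an unadjusted p under 0.05, and 10.1% of all features had every 14-day library below every 3-day library. The 14-day libraries also served to choose the genes as low, so these values describe that choice and are no separate evidence.

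Between 21 and 3 days of stress, every 21-day library was below every 3-day library for both genes. The log2 fold change was -0.41 (SE 0.0975, adjusted p = 0.175, edgeR) for Tex19.1 and -0.26 (SE 0.0814, adjusted p = 0.211, edgeR) for Piwil1, and the exact permutation p was 0.1 for each, the smallest it can give. Neither passed the adjusted threshold. The unadjusted p was 0.0039 (edgeR) for Tex19.1 and 0.014 (edgeR) for Piwil1, and 8.32% of all features were lower at an unadjusted p under 0.05. Of all features, 11.6% had every 21-day library below every 3-day library, so groups that do not overlap were common. Because the 21-day libraries also served to choose the genes as low, these p-values describe that choice and are no separate evidence. The Piwil1 difference moved to -0.17 without 21-day library 1, its lowest value. The 3-day library 3, at 467 CPM against 408 and 401 CPM in its group, also weighs on this difference.

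Between 21 and 14 days neither gene differed beyond the spread, with a log2 fold change of -0.11 (SE 0.0912, adjusted p = 0.999, edgeR) for Piwil1 and -0.05 (SE 0.110, adjusted p = 0.999, edgeR) for Tex19.1. Groups overlapped for both, with exact permutation p of 0.4 and 0.6, and 4.86% of all features had every 21-day library below every 14-day library. The sign of the Tex19.1 difference turned to 0.016 without 21-day library 1.

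At an adjusted p under 0.05 the edgeR test called 0 of 21076 features at 3 days against control (0%), 0 of 21058 at 14 days against control (0%) and 4 of 21106 at 21 days against control (0.019%). It called 0 of 21139 features between 14 and 3 days (0%), 1 of 21203 between 21 and 3 days (0.00472%) and 0 of 21051 between 21 and 14 days (0%). At an unadjusted p under 0.05 the counts for the comparisons with no call were 851 at 3 days against control, 2538 at 14 days against control, 2829 between 14 and 3 days and 643 between 21 and 14 days. DESeq2 called 37, 377, 388 and 18 features in these comparisons, 738 at 21 days against control and 812 between 21 and 3 days, all at an adjusted p under 0.05. For neither Piwil1 nor Tex19.1 did DESeq2 give an adjusted p under 0.05 between 21 and 3 days, with 0.0858 for Piwil1 and 0.0731 for Tex19.1.

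The level of Piwil1 at 14 days depends on which deposited value is used. Its deposited TPM was 115, 127 and 121 in controls and 121, 117 and 136 at 3 days. At 14 days it was 105, 107 and 109 TPM, and at 21 days 95.6, 98.0 and 112 TPM. On this scale every 14-day library was below every control and every 3-day library, which the counts do not show. The mean TPM was 121 ± 6.05 (SD, n = 3) in controls, 125 ± 10.3 (SD, n = 3) at 3 days, 107 ± 2.26 (SD, n = 3) at 14 days and 102 ± 8.67 (SD, n = 3) at 21 days.

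A TPM value follows from the count, the effective length and a factor of the library, and in the control, 3-day and 21-day libraries the deposited Piwil1 TPM did so. In the 14-day libraries the TPM implied by the Piwil1 count was 115, 101 and 121, with a mean of 112 ± 10.1 (SD, n = 3). The deposited TPM deviated from it by -8.71%, 5.41% and -9.60%. No other transcript with more than 1 count, apart from Stra8, deviated by more than 0.00097% in any library. The TPM columns of these libraries also fell short of a total of 1000000, by 12, 10 and 18, whereas the totals of control and 3-day libraries and of 21-day library 1 were within 0.087 of it. The totals of 21-day libraries 2 and 3 fell short by 3.05 and 3.97, and there the Piwil1 TPM followed from its count while that of Stra8 did not. Adding the whole shortfall to the deposited Piwil1 value would give 117, 117 and 127 TPM, with a mean of 120 ± 6.12 (SD, n = 3). The TPM listed in the study's marker table also differed from the deposited value for Piwil1 in these 3 libraries, and was higher in each, while it equalled the deposited value, to within 0.02 TPM plus 0.01% of the value, in all 12 libraries for the 577 other markers. The deposited 14-day Piwil1 TPM is therefore uncertain. Its 14-day counts are uncertain too, since in library 2 the implied TPM was below the deposited one although the column fell short. A TPM taken from that count would widen the gap. How much of the shortfall belongs to Piwil1 was not tested, and neither was its cause.

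**Figure D2:**
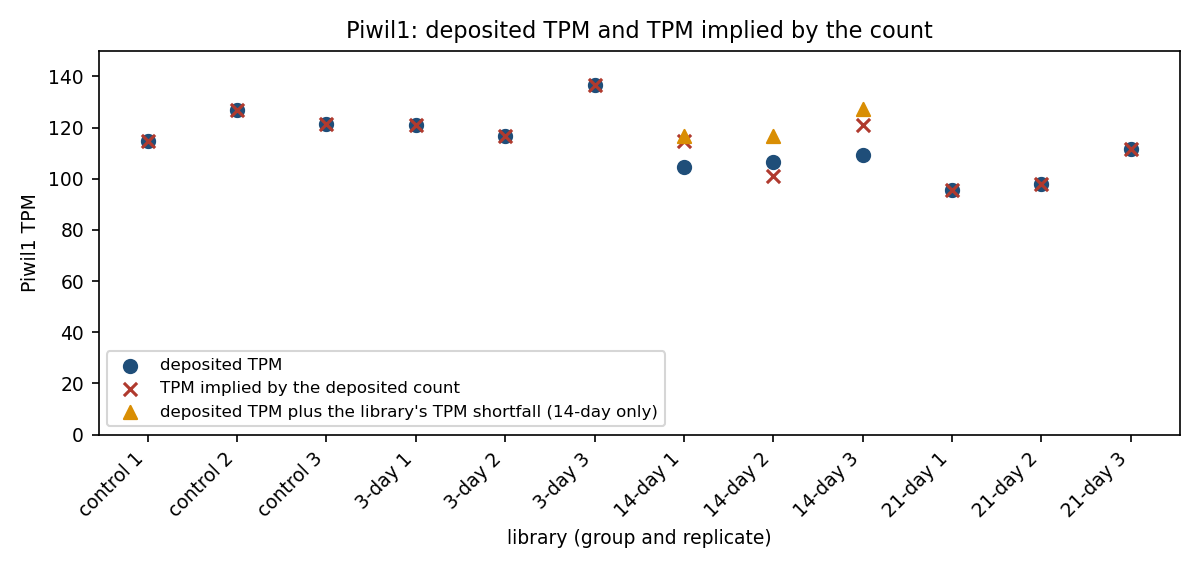
Piwil1 TPM in each of the 12 libraries as deposited (circles) and as implied by the deposited count (crosses), with the deposited value plus the TPM shortfall of the library (triangles, 14-day libraries only). Circles and crosses coincide except in the 14-day libraries, where the deposited values of 105, 107 and 109 stand against implied values of 115, 101 and 121.

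The choice moved the size of every 14-day difference of Piwil1. With 14-day counts that follow from the deposited TPM, the log2 fold change was -0.20 against control and -0.21 against 3 days (adjusted p = 0.269, edgeR). With counts that follow from the TPM plus the whole shortfall it was -0.030 against control and -0.04 against 3 days (adjusted p = 0.842, edgeR). The log2 fold change between 21 and 14 days was -0.04 under the former and -0.21 under the latter. The values against 3 days did not pass the adjusted threshold, and those against control were not tested. The count of 14-day library 2 also weighed on the result, since without that library the log2 fold change was -0.058 against control and -0.064 against 3 days.

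For Tex19.1 counts and TPM followed each other in all 12 libraries. Its deposited TPM was 12.6, 10.8 and 11.9 in controls and 12.8, 11.3 and 11.9 at 3 days. At 14 days it was 8.51, 10.2 and 9.38 TPM, and at 21 days 8.33, 8.36 and 9.71 TPM. As with CPM, all libraries of the long stress groups were below all others, with mean TPM of 79.5% of control at 14 days and 74.7% at 21 days. This gap too describes the choice of the gene.

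Other markers of the same stages moved in the same libraries. The summed TPM of the 11 other SPG markers was 569 to 734 in controls, 587 to 617 at 3 days, 500.0 to 552 at 14 days and 476 to 522 at 21 days. The summed TPM of the 180 other SPC markers was 47164 to 50121 in controls, 49555 to 50779 at 3 days, 46697 to 48864 at 14 days and 44695 to 46548 at 21 days. For spermatid markers, of which there are 385, the sum was 105058 to 123557 in controls, 106640 to 114461 at 3 days, 120727 to 128998 at 14 days and 127457 to 135536 at 21 days. The SPG and SPC sums thus had their lowest medians, and the spermatid sum its highest, at 21 days, the group where Piwil1 and Tex19.1 were lowest. The part of these shifts in the levels of both genes was not tested beyond the comparison with stage markers that follows.

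Between 21 and 3 days, 43 of 180 other SPC markers were lower and 1 higher at an unadjusted p under 0.05 (edgeR). In the same comparison 6 of 11 other SPG markers were lower and 0 higher, and 177 of 385 spermatid markers were higher and 2 lower. Over all features 8.32% were lower and 8.23% higher at that threshold. Between 14 and 3 days, 21 SPC markers and 5 SPG markers were lower and 0 of either higher, and 178 spermatid markers were higher and 4 lower, against 5.65% of all features lower and 7.73% higher. None of these markers had an adjusted p under 0.05 (edgeR). The markers were selected by the study as stage genes and their list was not trimmed by these values.

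Within its stage, the fold change of Piwil1 was below that of most SPC markers in the long stress groups. Its log2 fold change between 21 and 3 days had 12 of the 180 other SPC markers below it, against 90 of 180 at 3 days against control. Tex19.1 had 2 of the 11 other SPG markers below it between 21 and 3 days, namely Stra8, the meiotic entry gene, at -0.83 (SE 0.125, adjusted p = 0.142, edgeR) and the cyclin gene Ccne2. Counts and TPM of Stra8 disagreed in the 14-day and 21-day libraries, so its value is uncertain. Between 14 and 3 days 24 SPC markers were below Piwil1 and 2 SPG markers below Tex19.1. The ranks against 3 days use the 14-day and 21-day libraries in which both genes were chosen as low. They describe that choice and are no separate evidence.

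The log2 CPM of Piwil1 minus the mean log2 CPM of the other SPC markers was 1.52, 1.58 and 1.56 in controls and 1.49, 1.49 and 1.66 at 3 days. It was 1.49, 1.25 and 1.60 at 14 days and 1.31, 1.33 and 1.5 at 21 days. The 21-day and 3-day libraries overlapped on this scale. Every 21-day library was below every control, narrowly, in a comparison that chose the gene and was not tested. The difference between group means was -0.17 between 21 and 3 days (exact permutation p = 0.3), -0.10 between 14 and 3 days (exact permutation p = 0.5), -0.065 between 21 and 14 days (exact permutation p = 0.7) and -0.0044 between 3 days and control (exact permutation p = 1.0). Against the spermatocyte gene Sycp3 alone the difference between 21 and 3 days was 0.034, so the direction depended on the reference gene. Sycp3, a protein of the axis of meiotic chromosomes, had mean levels of 378 ± 19.0 CPM (SD, n = 3) in controls, 388 ± 24.3 (SD, n = 3) at 3 days, 334 ± 0.219 (SD, n = 3) at 14 days and 319 ± 22.7 (SD, n = 3) at 21 days.

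The log2 CPM of Tex19.1 minus the mean of the 11 other SPG markers was -0.92, -0.71 and -0.61 in controls and -0.68, -0.71 and -0.64 at 3 days. It was -1.0, -0.71 and -0.82 at 14 days and -1.05, -0.75 and -0.71 at 21 days. All long stress libraries were below all 3-day libraries, by a narrow margin, but overlapped the controls. Tex19.1 was chosen as low in the long stress libraries, so this order against 3 days describes that choice. The difference between group means was -0.16 between 21 and 3 days and -0.17 between 14 and 3 days (exact permutation p = 0.1 for each), 0.0081 between 21 and 14 days (exact permutation p = 1.0) and 0.071 between 3 days and control (exact permutation p = 0.6). Relative to its stage, the Tex19.1 difference from 3 days was thus smaller than its log2 fold change of -0.41 at 21 days. Without Stra8, whose counts and TPM disagreed, or with the median of the markers, the difference between 21 and 3 days was -0.22. Between 14 and 3 days these settings gave values from -0.20 to -0.15.

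**Figure D3:**
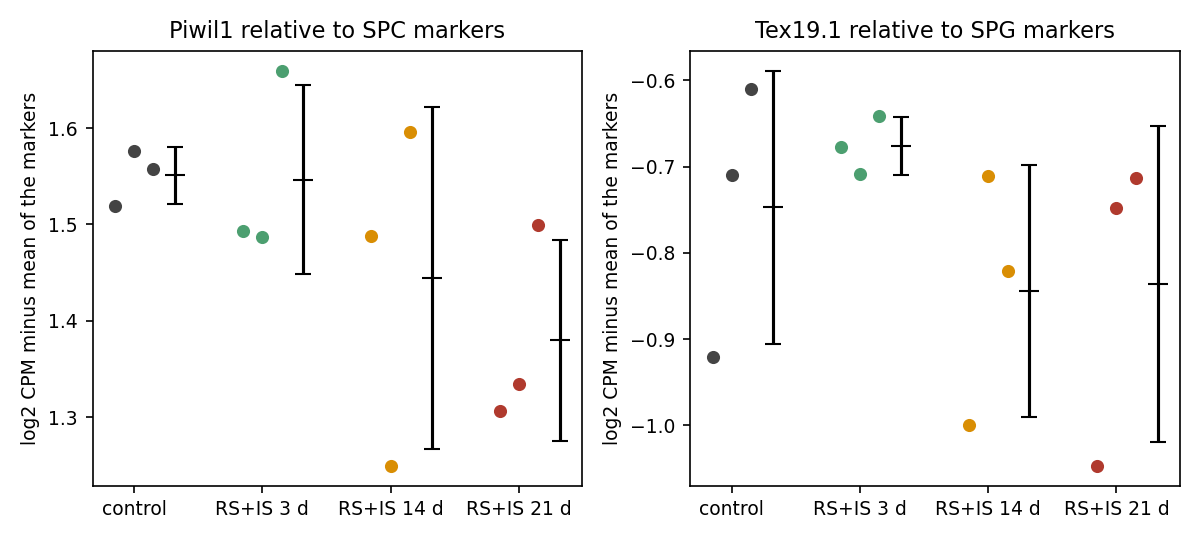
Log2 CPM of Piwil1 minus the mean log2 CPM of the 180 other SPC markers (left) and of Tex19.1 minus that of the 11 other SPG markers (right), for the 3 libraries of each group, with mean ± SD bars; the axes do not start at 0. Long stress libraries overlap the controls for Tex19.1, and for Piwil1 the 21-day libraries, from 1.31 to 1.5, overlap the 3-day libraries, from 1.49 to 1.66. The 21-day Piwil1 libraries lie just below the controls, from 1.52 to 1.58, in a comparison that chose the gene.

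Whether Tex19.1 was lower by more than Piwil1 was tested on the difference of their log2 CPM in each library. The difference between group means was -0.20 between 14 and 3 days and -0.15 between 21 and 3 days (exact permutation p = 0.3 for each), so a larger shift of Tex19.1 was not established. It was -0.0076 between 3 days and control (exact permutation p = 0.9) and 0.058 between 21 and 14 days (exact permutation p = 0.7). The 14-day values use Piwil1 counts that are uncertain, and 14-day counts taken from its TPM were not tried for this difference.

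Of 45 further genes listed for piRNA production, germ granules and retrotransposon silencing, 5 could be named in the deposited tables, and none of these passed the adjusted threshold in any of the 6 comparisons (edgeR). At an unadjusted p under 0.05 the test picked 1 of the 5, Ddx25, an RNA helicase of the chromatoid body, in 1 comparison. Its log2 fold change between 14 and 3 days was -0.10 (SE 0.0381, adjusted p = 0.326, edgeR), with every 14-day library lower, and 5.65% of all features were lower at that threshold in this comparison. Between 21 and 3 days, where 8.32% of all features were lower at that threshold, it was -0.14 (SE 0.0714, adjusted p = 0.361, edgeR). Ddx4, the germline RNA helicase VASA, had a log2 fold change of -0.11 (SE 0.0545, adjusted p = 0.377, edgeR) between 21 and 3 days, and Tdrd6, a Tudor protein of the chromatoid body, -0.077 (SE 0.0566). Mphosph8 and Pphln1 encode parts of the HUSH complex, which silences retrotransposons, and stood at -0.072 (SE 0.0559) and 0.012 (SE 0.0596) in that comparison. The median log2 fold change of the 5 genes was -0.077 between 21 and 3 days, against -0.012 over all features, and 0.0040 between 14 and 3 days, against -0.0083 over all features. Against control it was -0.00074 at 3 days, -0.023 at 14 days and -0.084 at 21 days, against -0.0086, -0.012 and -0.0031 over all features, and 2.01%, 4.86% and 5.71% of all features were lower at an unadjusted p under 0.05. Between 21 and 14 days it was -0.042, against 0.0078 over all features, of which 1.35% were lower at that threshold.

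Genes of the synaptonemal complex, which holds paired chromosomes together in meiosis, were listed because Tex19.1 is needed for synapsis in the mouse. Of 7 listed, 4 could be named. Between 21 and 3 days 3 of them were lower at an unadjusted p under 0.05 (edgeR), namely Sycp2 at -0.14, Sycp3 at -0.30 and Syce2 at -0.36, while Syce1 stood at -0.0054, against 8.32% of all features lower. Between 14 and 3 days 2 were lower at that threshold, Sycp3 at -0.22 and Syce2 at -0.41, against 5.65% of all features lower. None passed the adjusted threshold.

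**Figure D4:**
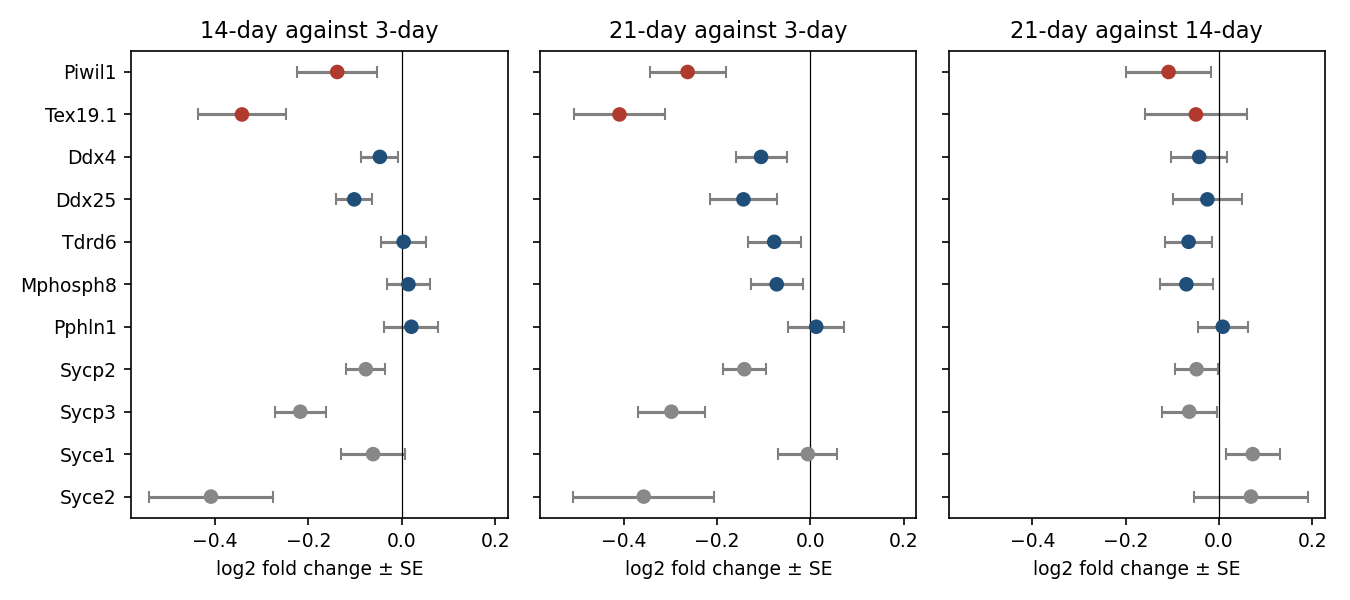
Log2 fold change ± SE (edgeR) of Piwil1 and Tex19.1 (red), the 5 other named transposon control genes (blue) and the 4 named synaptonemal complex genes (grey) for the 3 comparisons among stressed groups. Tex19.1 stands at -0.34 and -0.41 against the 3-day group, further from 0 than the 5 blue genes, which lie between -0.14 and 0.021, and at -0.05 between 21 and 14 days. Both red genes were chosen for low values at 14 or 21 days, so this distance describes that choice.

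Markers whose pattern over the 12 libraries was most like that of Piwil1 were all SPC markers. Likeness was measured as the root mean square difference of centred log2 CPM, as a description without a test, since all markers share the libraries and their depth. For Piwil1, whose own SD was 0.146, the nearest of 577 markers were Shcbp1l at 0.0631, Thoc7, a subunit of the mRNA export complex THO, at 0.0653, the cell cycle kinase subunit Cks2 at 0.0781, Atxn7l3b at 0.0810 and the testis proteasome subunit Psma8 at 0.0830. Over all 21991 features these stood at ranks 4, 8, 26, 35 and 47.

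The nearest markers of Tex19.1 came from all 3 stages. Its own SD was 0.204, and the differences were 0.0889 for the splicing factor Bcas2, a spermatid marker, 0.114 for Sycp3, 0.115 for the SPG marker cyclin E2 (Ccne2), 0.124 for Psma8 and 0.128 for Cdc20, an activator of the anaphase-promoting complex. Their ranks over all features were 10, 95, 102, 216 and 295. Piwil1 and Tex19.1 differed from each other by 0.163 on this scale, so neither was among the nearest markers of the other.

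Ccne2, which drives entry into S phase, had a log2 fold change of -0.48 (SE 0.0691) between 21 and 3 days and -0.36 (SE 0.0726) between 14 and 3 days. Psma8, the marker near both genes, stood at -0.31 (SE 0.0715) between 21 and 3 days and at -0.13 (SE 0.0472) between 14 and 3 days. Bcas2 stood at -0.32 (SE 0.0737) and -0.26 (SE 0.0649) in these comparisons. These 3 genes were picked for their likeness to Tex19.1 in the same libraries, so their values describe that choice and are no separate evidence.

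RefSeq lists a close relative, Tex19.2, which could not be named in the deposited tables. Whether reads of Tex19.1 are shared with it was not tested, and the Tex19.1 values are uncertain to that extent.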

How the data were processed

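RNA was measured in 12 testis libraries. The submitters' processing notes name Trimmomatic for trimming, HISAT2 for alignment to Rnor_6.0 (rn6) and HTSeq for counting; versions are not given in the sources used here. For each Ensembl transcript the authors deposited an estimated count and a TPM value, beside 2 lengths, a layout that HTSeq does not write. The deposited TPM corrects for effective length and sums to about 1000000 in a library. The 578 markers of the study's table were matched by counts to 781 of 31715 transcripts, alone or as runs of neighbours within 0.6 counts, and each marker's transcripts were summed. Of that table the counts and TPM were used only as a key to names, and its stage labels defined the SPG, SPC and spermatid markers.

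Estimated counts were rounded and fitted per pair of groups with edgeR 4.0.16 in R 4.3.3 (TMM, filterByExpr, glmQLFit and glmQLFTest, Benjamini-Hochberg over all features, threshold 0.05). The SE is the log2 fold change over the square root of F. CPM used the 12 libraries' TMM factors, and log2 CPM a prior count of 2. Single values were tested by exact permutation, two-sided. Alternatives used DESeq2 1.42.0 and limma 3.58.1 on log2(TPM + 1), a pseudocount of 1 that understates changes of low genes, and other scalings, filters and fits. The edgeR fit was tested on simulated data with changes larger than those of Piwil1 and Tex19.1. That test does not show how well changes of their size are found. Python 3.11.15 with pandas 2.3.3 and NumPy 2.4.6 did the matching. Promoter sequences are from RefSeq. The named genes are Piwil1, Tex19.1, the listed genes that could be matched, Stra8 and, for each of the pair, the 5 most similar markers. The genes and lists were chosen with earlier results of these data known.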

Additional observations from a re-analysis of the deposited data

How the results depend on the processing

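Across the alternatives neither Piwil1 nor Tex19.1 reached an adjusted p under 0.05 in the 4 comparisons tested, and 0 of the 5 further transposon control genes did in any comparison. Counts are estimates, 3 libraries a group limit the exact test to p = 0.1, and only markers carry names. The cause of the changes below was not tested, apart from left-out libraries. The Tex19.1 log2 fold change at 3 days against control turned to 0.025 with the total count alone, to 0.00096 with a single fit of all 12 libraries and to 0.029 with TPM recomputed from counts.

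Features called at an adjusted p under 0.05 moved as follows. At 3 days against control (main count 0) they were 1 with at least 10 counts per library, 1 in the fit of all 12 libraries and 37 with DESeq2. At 14 days against control (0) they were 12 in the fit of all 12 and 377 with DESeq2. At 21 days against control (4) they were 666 in the fit of all 12 and 738 with DESeq2. Between 14 and 3 days (0) DESeq2 called 388. Between 21 and 3 days (1) they were 10 with the total count alone, 0 with at least 10 counts, 30 in the fit of all 12 and 812 with DESeq2. Between 21 and 14 days (0) they were 1 with no filter, 1 in the fit of all 12 and 18 with DESeq2.

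Same-numbered libraries did not deviate together in every pair of any comparison, with r from -0.122 to 0.225, so the numbers were not taken as pairs. Between 0 and 2 of 3 libraries per comparison were nearest to their own number. With the replicate number as a block, 0 features were called at 21 days against control, 1 between 21 and 3 days and 0 in the other 4 comparisons, and the Piwil1 and Tex19.1 log2 fold changes between 21 and 3 days were -0.26 and -0.41 (adjusted p = 0.195 and 0.212, edgeR).

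With Sycp3 as the reference, Piwil1 relative to SPC markers stood at 0.041 at 14 days and 0.00049 at 21 days against control, at 0.075 between 14 and 3 days and at 0.034 between 21 and 3 days. With 14-day counts taken from the deposited TPM it was 0.0023 between 21 and 14 days. Tex19.1 relative to SPG markers between 21 and 14 days was -0.074 with the median in place of the mean and -0.019 without Stra8.

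Leaving out each library in turn, the counts of features called ranged from 0 to 1 at 3 days, 0 to 2 at 14 days and 0 to 3 at 21 days against control, 0 to 2 between 14 and 3 days, 0 to 5 between 21 and 3 days and 0 throughout between 21 and 14 days. At 3 days against control the log2 fold change ranged from -0.064 to 0.057 for Piwil1 and from -0.049 to 0.033 for Tex19.1, Piwil1 relative to SPC markers from -0.061 to 0.025, Tex19.1 relative to SPG markers from -0.016 to 0.14 and Tex19.1 minus Piwil1 from -0.10 to 0.079. Between 21 and 14 days the log2 fold change of Tex19.1 ranged from -0.11 to 0.016, Piwil1 relative to SPC markers from -0.16 to 0.011, Tex19.1 relative to SPG markers from -0.070 to 0.11 and Tex19.1 minus Piwil1 from -0.025 to 0.19. Signs therefore turned with 1 library only in these 2 comparisons among those tested. Between 21 and 3 days the log2 fold change kept its direction, from -0.31 to -0.17 for Piwil1 and from -0.46 to -0.32 for Tex19.1.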
